A study of Mus musculus with 2 samples.

Results

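Fibroblast growth factors (FGFs) and their receptors were followed across the cell types of the atherosclerotic mouse aorta. The set held 6 of the 32285 genes counted, chosen by symbol: the ligands Fgf1 and Fgf2, the receptors Fgfr1, Fgfr2 and Fgfr3, and Frs2, the adaptor that couples FGF receptors to intracellular signalling. FGF ligands bind receptor tyrosine kinases together with heparan sulphate chains on the cell surface. The activated receptor phosphorylates Frs2, which recruits Grb2, Gab1 and the phosphatase Ptpn11 and so feeds the Ras and MAP kinase pathway, while Sprouty, Spred and Dusp proteins damp it. In the vessel wall, FGF signalling in endothelial cells is known for holding back TGF-beta signalling and endothelial-to-mesenchymal transition, the gain of smooth muscle or fibroblast features by endothelial cells, and Fgf2 is a classic mitogen of smooth muscle cells.

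The series asks how CD45, the receptor phosphatase best known from leukocytes and encoded by Ptprc, acts on that transition in atherosclerosis when endothelial cells make it. Both groups were C57BL/6 mice that lacked ApoE (ApoE-/-) and were fed a Western diet, and aortic cells were enriched with CD31 microbeads before 10x Genomics single-cell RNA sequencing. For WT mice no deletion of CD45 is labelled. EC-iCD45KO mice lost it through a deletion that tamoxifen induces and that is specific to endothelial cells (EC). The sources used here do not give the Cre driver, the age or sex of the animals, the time on diet, any tamoxifen in the WT group or whether animals were pooled.

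Each group had 1 library, so no difference between WT and EC-iCD45KO had a replicate check, and no p-value was computed. The WT library held 39849 barcodes and 92058043 UMIs (unique molecular identifiers, tags that tell one captured RNA from another). For EC-iCD45KO the numbers were 30278 and 88967918. After filtering, 35832 and 26168 cells remained, and 340 of all barcodes occurred in both libraries. Cells were grouped into 13 classes by marker genes that did not include the 6 FGF genes, and a class is called "-like" for that reason. EC-like cells numbered 3308 in WT and 3922 in EC-iCD45KO, with all 12 EC markers detected in each library. Smooth muscle cell (SMC)-like cells numbered 2212 and 3223, fibroblast-like cells 2160 and 2423, and macrophage-like cells 2871 and 6624. Chondrocyte-like cells numbered 761 in WT and 42 in EC-iCD45KO, too few in the second for a comparison of the libraries. Clusters without a name held 33.1% and 25.9% of the cells. Ptprc itself was at 281 CPM (counts per 1e6, a gene's UMIs scaled to that many UMIs of its class) in EC-like cells of WT and 111 CPM in those of EC-iCD45KO. It was also lower in SMC-like (159 against 84.0 CPM), fibroblast-like (304 against 132 CPM) and macrophage-like cells (493 against 265 CPM), and higher in neutrophil-like (932 against 1770 CPM) and B-like cells (752 against 1261 CPM). The part of the deletion in the lower endothelial level cannot be told apart from what lowered the gene in classes outside the endothelium, and which exons were deleted was not stated.

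The genes lie on separate chromosomes (GRCm38 positions, GENCODE release M21). Fgfr1 spans chr8:25513654-25575718 on the plus strand, Fgfr3 chr5:33721674-33737068 on the plus strand, Fgf2 chr3:37348346-37410108 on the plus strand and Frs2 chr10:117069427-117148534 on the minus strand. Fgfr2 stands apart, because its GENCODE model runs over 2.96 Mb on the minus strand (chr7:130162451-133123350), whereas RefSeq gives 104 kb (chr7:130162451-130266808). The longer model overlaps 48 other counted genes, 22 of them on the same strand, among them Ate1, Nsmce4a, Oat and Ctbp2. The last 5199 bases of Fgf2 overlap Nudt6, a gene on the opposite strand, and whether the counting used strand or introns was not stated.

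The DNA just upstream of 3 of these genes is shown because their counts ranged from a pattern limited to few classes (Fgfr3) to UMIs in every class (Fgfr2 and Frs2). Whether the Fgfr2 counts used the longer GENCODE model was not stated, and the stretch shown lies at the RefSeq start. A promoter window was matched for 4 of the 6 genes in RefSeq (GRCm38.p6), and of each shown window only the bases outside exons of the same strand are printed, 5′ to 3′ on the strand of the gene. Capitals mark the GC box, GGGCGG on either strand.
Fgfr3 upstream, chr5:33721474-33721673, plus strand: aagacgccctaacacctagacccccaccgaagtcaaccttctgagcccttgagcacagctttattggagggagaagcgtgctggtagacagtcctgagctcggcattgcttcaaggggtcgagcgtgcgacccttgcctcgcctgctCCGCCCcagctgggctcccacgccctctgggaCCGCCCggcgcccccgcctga
Frs2 upstream, chr10:117148535-117148724, minus strand: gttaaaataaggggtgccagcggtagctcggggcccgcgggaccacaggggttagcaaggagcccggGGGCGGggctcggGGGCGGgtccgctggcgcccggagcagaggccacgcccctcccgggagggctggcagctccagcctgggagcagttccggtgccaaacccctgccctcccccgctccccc
Fgfr2 upstream of the RefSeq start, chr7:130266809-130267058, minus strand: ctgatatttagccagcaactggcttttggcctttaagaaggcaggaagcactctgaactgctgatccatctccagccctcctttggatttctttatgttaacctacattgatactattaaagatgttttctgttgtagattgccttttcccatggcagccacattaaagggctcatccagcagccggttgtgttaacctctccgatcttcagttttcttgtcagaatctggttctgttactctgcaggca

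The stretches of Fgfr3 and Frs2 held 2 GC boxes each and were 65.0% and 74.7% G or C, while that of Fgfr2 held none and was 44.0% G or C. The full windows of 300 bases held 4 GC boxes for Fgfr3, 2 for Frs2 and 0 for Fgfr2. A second Fgfr3 window (chr5:33722056-33722355), not shown, held 2 and was 73.0% G or C. Over all 32851 RefSeq promoter windows of 300 bases, 35.7% held a GC box and the median G or C content was 52.7%. Neither TATAAA (in 13.6% of windows) nor TGACTCA, the AP-1 word (in 5.20%), occurred in the windows of Fgfr2, Fgfr3, Fgf2 or Frs2 on either strand. Matches and their absence describe these letters only.

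Among the named classes, the 2 ligands were highest in chondrocyte-like and SMC-like cells, were also seen in Schwann-like cells, and were low in EC-like cells. The unnamed cluster 29, described at the end, had more Fgf1, at 85.2 CPM in WT and 105 CPM in EC-iCD45KO. Fgf2, which lacks a classical signal peptide and is held on matrix heparan sulphate, reached 54.7 CPM (95% counting interval 49.8 to 60.0) in SMC-like cells of WT and 69.9 CPM (65.4 to 74.6) in those of EC-iCD45KO. All intervals given here are exact, at 95%, and cover counting error only. In EC-like cells Fgf2 was at 3.81 CPM in WT (29 UMIs) and 2.85 CPM in EC-iCD45KO (28 UMIs). The SMC-like level was thus 14.4-fold and 24.5-fold that of EC-like cells, a log2 ratio of 3.84 (3.30 to 4.44) and 4.62 (4.08 to 5.22). SMC-like cells held 48.2% of all Fgf2 UMIs of the cells kept in WT and 73.2% in EC-iCD45KO. Chondrocyte-like cells were as high within the intervals (56.4 and 83.0 CPM), Schwann-like cells followed at 36.0 CPM (15.6 to 71.0) and 29.8 CPM, the first overlapping the SMC-like level, and fibroblast-like cells were lower at 10.7 and 15.9 CPM.

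Fgf1, the ligand able to bind every FGF receptor, had much the same order of classes. It was at 17.1 CPM in SMC-like cells of WT (141 UMIs) and 34.3 CPM in those of EC-iCD45KO (447 UMIs). The chondrocyte-like level was 38.6 CPM in WT, above the SMC-like level beyond the intervals, and 42.9 CPM in EC-iCD45KO, where the intervals overlapped. Schwann-like cells had 13.5 CPM (3 UMIs) and 32.1 CPM (28 UMIs), with intervals that overlapped those of SMC-like cells in both libraries. Fibroblast-like cells stood at 5.11 and 11.3 CPM. EC-like cells stood at 3.55 CPM (27 UMIs) and 4.37 CPM (43 UMIs), so SMC-like cells exceeded them by a log2 ratio of 2.27 (1.67 to 2.92) and 2.97 (2.52 to 3.46). In macrophage-like and T/NK-like cells Fgf1 was at or below 1.02 CPM in both libraries. B-like cells had 4 UMIs (0.304 CPM) in WT and 0 in EC-iCD45KO, which allows up to 3.27 CPM.

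**Figure D1:**
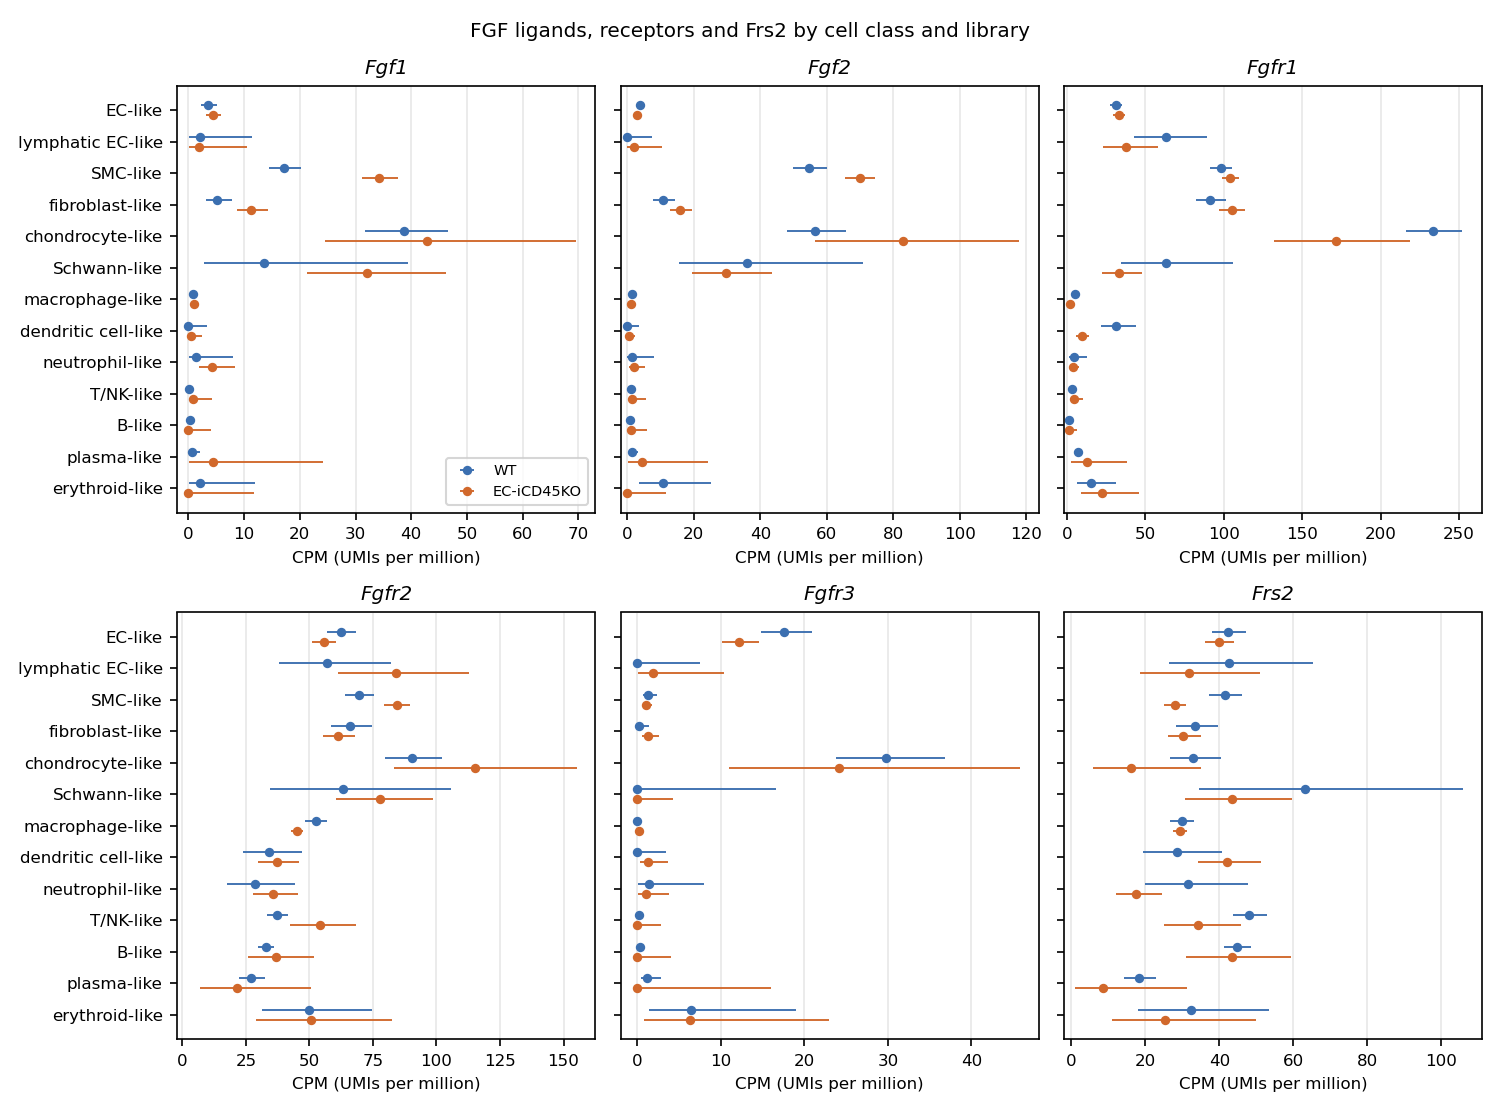
Level of each of the 6 genes (x axis, CPM of the class) in the 13 named cell classes (y axis), with WT in blue and EC-iCD45KO in orange. Points are summed over the cells of 1 library and bars are exact 95% Poisson intervals; Fgf1 and Fgf2 are highest in chondrocyte-like and SMC-like cells, with overlapping intervals in Schwann-like cells for Fgf1 in both libraries and Fgf2 in WT, Fgfr1 is highest in chondrocyte-like cells, followed by SMC-like and fibroblast-like cells, Fgfr3 stands above 10 CPM in EC-like and chondrocyte-like cells, and UMIs counted to Fgfr2 and Frs2 occur in every class.

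The receptors divided into 3 patterns, seen in the plot of levels by class. Fgfr1, the main receptor of mesenchymal cells, was highest in chondrocyte-like cells at 234 CPM in WT and 171 CPM in EC-iCD45KO. SMC-like (98.0 and 104 CPM) and fibroblast-like cells (91.4 and 105 CPM) came next and did not differ from each other beyond the intervals in either library. EC-like cells held 31.0 CPM (27.2 to 35.2, 236 UMIs) in WT and 33.1 CPM (29.6 to 36.9, 325 UMIs) in EC-iCD45KO. SMC-like cells exceeded EC-like cells by a log2 ratio of 1.66 in both libraries (1.45 to 1.88 and 1.48 to 1.83), and with EC-like and SMC-like clusters weighted equally by 1.24 and 1.25. Lymphatic EC-like cells had 63.0 and 37.4 CPM, and the second value overlapped that of EC-like cells. Schwann-like cells had 63.1 CPM (34.5 to 106) in WT, an interval that overlapped those of SMC-like and fibroblast-like cells. In EC-iCD45KO they had 33.2 CPM (22.2 to 47.7), overlapping EC-like cells. Of the leukocytes, dendritic cell-like cells of WT stood level with EC-like cells at 31.4 CPM (21.7 to 43.8), and those of EC-iCD45KO had 9.27 CPM. Plasma-like cells had 6.70 CPM in WT and 13.0 CPM (2.68 to 38.0, 3 UMIs) in EC-iCD45KO, where the interval overlapped that of EC-like cells. Macrophage-like cells had 5.22 and 2.07 CPM, neutrophil-like cells 4.31 and 3.69 CPM, T/NK-like cells 3.23 and 4.58 CPM, and B-like cells 1.52 and 1.09 CPM.

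Among the named classes, Fgfr3, a receptor known as a brake on cartilage growth, was close to limited to chondrocyte-like and EC-like cells. It had 29.8 CPM (84 UMIs) in chondrocyte-like cells of WT and 24.1 CPM (9 UMIs) in those of EC-iCD45KO. EC-like cells had 17.6 CPM (14.7 to 20.8, 134 UMIs) in WT and 12.2 CPM (10.1 to 14.6, 120 UMIs) in EC-iCD45KO. Of all Fgfr3 UMIs, 46.0% in WT and 62.2% in EC-iCD45KO came from EC-like cells, and 28.9% and 4.66% from chondrocyte-like cells. Unnamed clusters held 15.8% and 14.0%, and the unnamed cluster 19 had Fgfr3 at 17.9 and 10.9 CPM. In contrast, SMC-like cells stood at 1.33 and 1.07 CPM, a log2 ratio to EC-like cells of -3.72 (-4.76 to -2.84) and -3.51 (-4.42 to -2.70). Fibroblast-like cells had 1 and 8 UMIs (0.243 and 1.32 CPM), macrophage-like cells 0 and 7, and B-like cells 4 and 0. The 0 in macrophage-like cells of WT allows up to 0.257 CPM. Lymphatic EC-like cells had 0 and 1 UMIs, and the 0 among their 491863 UMIs in WT allows up to 6.10 CPM, below the EC-like level. Erythroid-like cells, with 3 and 2 UMIs (6.48 and 6.35 CPM), had intervals that overlapped those of EC-like cells.

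Fgfr2, in its best known role the receptor of epithelia, was counted at 21.7 to 115 CPM in all 13 classes of both libraries. EC-like cells had 62.5 CPM (57.04 to 68.4) and 55.6 CPM (51.1 to 60.5), SMC-like cells 69.5 and 84.3 CPM, and fibroblast-like cells 66.1 and 61.3 CPM. Leukocyte classes that should lack the receptor were not far below: B-like cells had 32.8 and 37.0 CPM, T/NK-like cells 37.3 and 54.2 CPM, neutrophil-like cells 28.7 and 35.8 CPM, and macrophage-like cells 52.5 and 45.1 CPM. In EC-iCD45KO the EC-like and T/NK-like levels did not differ beyond the intervals. The annotation used for counting was not stated. If it held the 2.96 Mb GENCODE model, reads of the receptor and reads of other genes within it cannot be told apart. Every Fgfr2 value carries this limit.

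Frs2, the adaptor, had no class that stood clear of its neighbours in level. Its level ran from 18.2 to 63.1 CPM across classes in WT and from 8.67 to 43.5 CPM in EC-iCD45KO, and neighbouring classes in the order of levels overlapped throughout. Classes further apart in that order did differ beyond the intervals. In WT, plasma-like cells had 18.2 CPM (14.3 to 22.8) and T/NK-like cells 48.1 CPM (43.6 to 53.0). EC-like cells had 42.4 and 39.9 CPM, B-like cells 44.8 and 43.5 CPM, macrophage-like cells 29.8 and 29.3 CPM. SMC-like cells had 41.5 CPM in WT and 27.9 CPM in EC-iCD45KO.

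EC-like cells were made of 3 clusters, which differed in receptors. Cluster 17 (837 and 508 cells) was led by Sfrp1, Gja5, Gja4, Edn1 and Cytl1, of which the connexins Gja5 and Gja4 mark arterial endothelium. Cluster 3 (1839 and 2655 cells) was led by Ackr1, a chemokine-binding receptor of venules, and by Tmem252, Fabp4 and Igfbp3. Cluster 16 (632 and 759 cells) was led by Gpihbp1, which anchors lipoprotein lipase in capillaries, and by Adgrl4, Fabp4 and Cd36.

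Fgfr1 was highest in cluster 17, at 77.2 CPM in WT and 72.4 CPM in EC-iCD45KO. Clusters 3 and 16 had 12.9 and 14.1 CPM in WT and 28.6 and 21.2 CPM in EC-iCD45KO. In WT, cluster 17 thus exceeded cluster 3 by a log2 ratio of 2.58 (2.08 to 3.10), and in EC-iCD45KO by 1.34 (0.97 to 1.71). It exceeded cluster 16 by 2.45 (1.89 to 3.05) and 1.77 (1.35 to 2.21). The level of cluster 17 lay below that of SMC-like cells as a whole. It lay above that of the SMC-like cluster 5 in WT (47.5 CPM) but not in EC-iCD45KO (73.9 CPM). The 6 genes were left out of the clustering, so these differences were not built into the clusters.

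Fgfr3 separated the same clusters less evenly. In WT it was at 22.4 CPM in cluster 17, 19.6 CPM in cluster 16 and 13.3 CPM in cluster 3, and cluster 17 did not exceed cluster 16 beyond the interval (0.19, -0.44 to 0.82). In EC-iCD45KO it was at 32.8 CPM in cluster 17 against 9.62 CPM in cluster 16 and 6.99 CPM in cluster 3, with log2 ratios of 1.77 (1.13 to 2.43) and 2.23 (1.57 to 2.91). Fgf2 was low but also highest in cluster 17, with 9.05 CPM (19 UMIs) in WT and 6.81 CPM (11 UMIs) in EC-iCD45KO, against at most 2.84 CPM in clusters 3 and 16. Over cluster 3 the log2 ratio was 2.32 (0.94 to 3.94) in WT, while in EC-iCD45KO the interval held 0 (1.26, -0.04 to 2.53). Fgf1 went the other way in WT, with 7.75 CPM (17 UMIs) in cluster 16 and 1.43 CPM (3 UMIs) in cluster 17. Fgfr2 ran from 53.0 to 68.0 CPM and Frs2 from 32.6 to 52.2 CPM over the 3 clusters and both libraries.

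**Figure D2:**
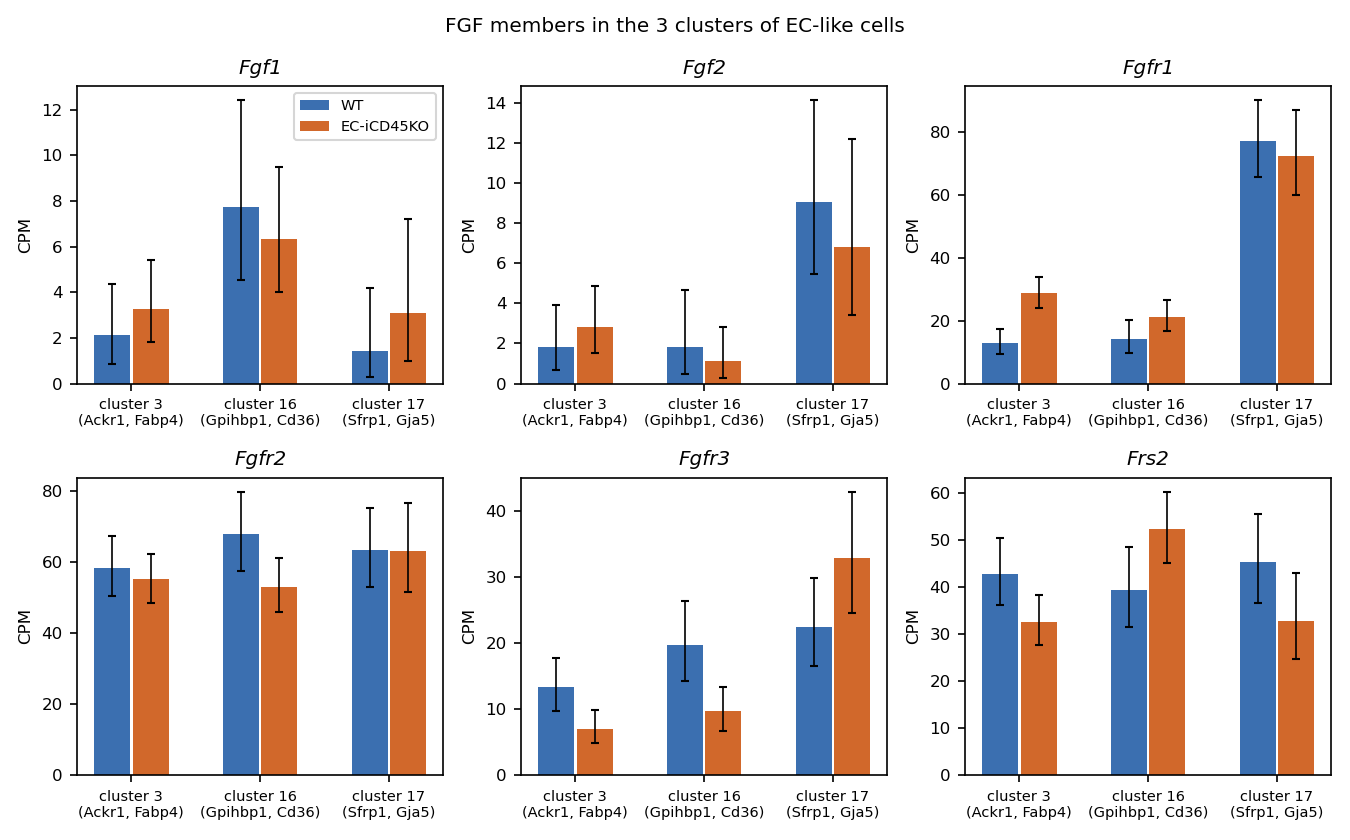
Level of each gene (y axis, CPM of the cluster) in the 3 clusters of EC-like cells (x axis), with WT in blue and EC-iCD45KO in orange. Bars are values of 1 library from 0 and whiskers are exact 95% Poisson intervals; Fgfr1 stands at 77.2 and 72.4 CPM in cluster 17 and at or below 28.6 CPM in clusters 3 and 16.

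Markers of other cell types were summed in EC-like cells. Expression by the cells themselves, free RNA and doublets cannot be told apart in these sums. The 8 SMC markers, all of them detected in EC-like cells, summed there to 664 CPM in WT and 773 CPM in EC-iCD45KO, which is 4.02% and 2.95% of their sum in SMC-like cells. The EC-like level of Fgfr1 was 31.6% and 31.7% of the SMC-like level, that of Fgf1 20.7% and 12.7%, and that of Fgf2 6.97% and 4.07%. The 7 chondrocyte markers summed in EC-like cells to 5.67% and 6.00% of their level in chondrocyte-like cells, the other class high in both ligands. The 8 fibroblast markers summed to 3.41% and 2.60% of their level in fibroblast-like cells, and the 8 macrophage markers to 14.3% and 18.5% of theirs. Their part in the EC-like FGF levels was not tested.

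Few EC-like cells carried a UMI of any of the 6 genes at the depth of these libraries. After thinning every cell to 1000 UMIs, which left 2435 WT and 2516 EC-iCD45KO cells, 2.26% (1.71% to 2.93%) and 2.46% (1.89% to 3.15%) had an Fgfr1 UMI, and 5.59% and 6.07% did before thinning. B-like cells, which should lack the gene, had 0.130% and 0.319% after thinning, at median depths of 2008 and 2560.5 UMIs against 1480.5 and 1296.5 in EC-like cells. Fgfr3 was seen in 1.72% and 1.19% of the thinned EC-like cells and in 0.0557% of B-like cells of WT. In B-like cells of EC-iCD45KO 0 of 313 thinned cells had an Fgfr3 UMI, which allows a share of cells with a UMI of up to 0.958% as 3 counts of the total, or 1.17% by the exact bound. Before thinning the Fgfr3 shares were 3.48% and 2.45% in EC-like cells. Fgf2 was seen in 0.534% (13 cells) and 0.358% (9 cells), against 7.01% and 8.40% of SMC-like cells for Fgfr1 and 3.82% and 5.80% for Fgf2. Before thinning, Fgf2 was in 0.786% and 0.688% of EC-like cells. Fgf1 was seen in 4 and 9 thinned EC-like cells (0.164% and 0.358%), and in 0.786% and 1.05% before thinning. For Fgfr2 the B-like share was 3.14% and 2.24% beside 6.00% and 5.604% in EC-like cells (12.1% and 11.3% unthinned). For Frs2 the B-like share of 4.49% and 4.79% was as large as the 4.72% and 3.66% of EC-like cells (8.74% and 8.39% unthinned). These share values carry exact Clopper-Pearson intervals.

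Between the libraries, Fgfr3 was lower in EC-like cells of EC-iCD45KO, and the ratios of Fgfr1, Fgfr3 and Frs2 differed from one EC-like cluster to another. Of the 10943 genes that averaged 5 CPM or more in EC-like cells, 6.25% were higher and 8.89% lower in EC-iCD45KO at a log2 ratio of 0.5 or more. Of the 6 FGF genes, 4 reached that mean, and 0 were higher and 1, Fgfr3, was lower by this measure. Their median log2 ratio was -0.13, beside -0.01 over all genes.

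Fgfr3 stood at 17.6 CPM in WT against 12.2 CPM in the deletion library, and the log2 ratio was -0.53 (-0.90 to -0.16). The clusters did not share one direction. The ratio was -0.92 (-1.63 to -0.23) in cluster 3 and -1.03 (-1.71 to -0.35) in cluster 16, and 0.55 (-0.04 to 1.15) in cluster 17, the cluster with the highest level. With the 3 clusters weighted equally the EC-like ratio was -0.16, without doublet removal it was -0.25 and with the stricter cell filter -0.40. It was also just under 0.5 in size at Leiden resolution 2 (-0.48), with centring (-0.48) and with TMM or DESeq2 factors (-0.49). Markers of chondrocytes, the other class with Fgfr3, summed to 733 CPM in EC-like cells of WT and 437 CPM in those of EC-iCD45KO, with all 7 detected in both. One of the 7, Cytl1, is also among the 10 leading genes of cluster 17, and the part of these markers in the ratio was not tested. Cluster 17 made up fewer of the EC-like cells in EC-iCD45KO, 508 of 3922 against 837 of 3308 in WT.

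For Fgfr1 the EC-like ratio was 0.09 (-0.15 to 0.34), again a sum of unlike clusters. In cluster 3 the gene had 43 UMIs in WT and 131 in EC-iCD45KO (12.9 and 28.6 CPM), a ratio of 1.14 (0.64 to 1.68). In cluster 16 the ratio was 0.58 (-0.04 to 1.23), and in cluster 17 it was -0.09 (-0.45 to 0.26). Over the whole of the EC-like class the sum of SMC markers went from 664 to 773 CPM and that of fibroblast markers from 598 to 517 CPM, and their part in the Fgfr1 values was not tested. Equal weights gave 0.23 for the class and no doublet removal gave 0.31.

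For the other members the interval of the EC-like ratio held 0. Fgfr2 had a log2 ratio of -0.17 (-0.35 to 0.01) and Frs2 one of -0.09 (-0.31 to 0.13). By cluster, Frs2 differed in both directions, with -0.39 (-0.73 to -0.05) in cluster 3, 0.41 (0.04 to 0.80) in cluster 16 and -0.47 (-0.98 to 0.03) in cluster 17. Fgfr2 was at -0.36 (-0.67 to -0.04) in cluster 16, and its intervals in clusters 3 and 17 held 0. The ligands were below the 5 CPM mean and had wide intervals, 0.30 (-0.43 to 1.05) for Fgf1 and -0.42 (-1.22 to 0.38) for Fgf2. Their signs turned, to -0.014 for Fgf1 with the stricter cell filter and to 0.061 for Fgf2 with means of single-cell CPM. A difference of either ligand within these intervals was not detectable at this depth.

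**Figure D3:**
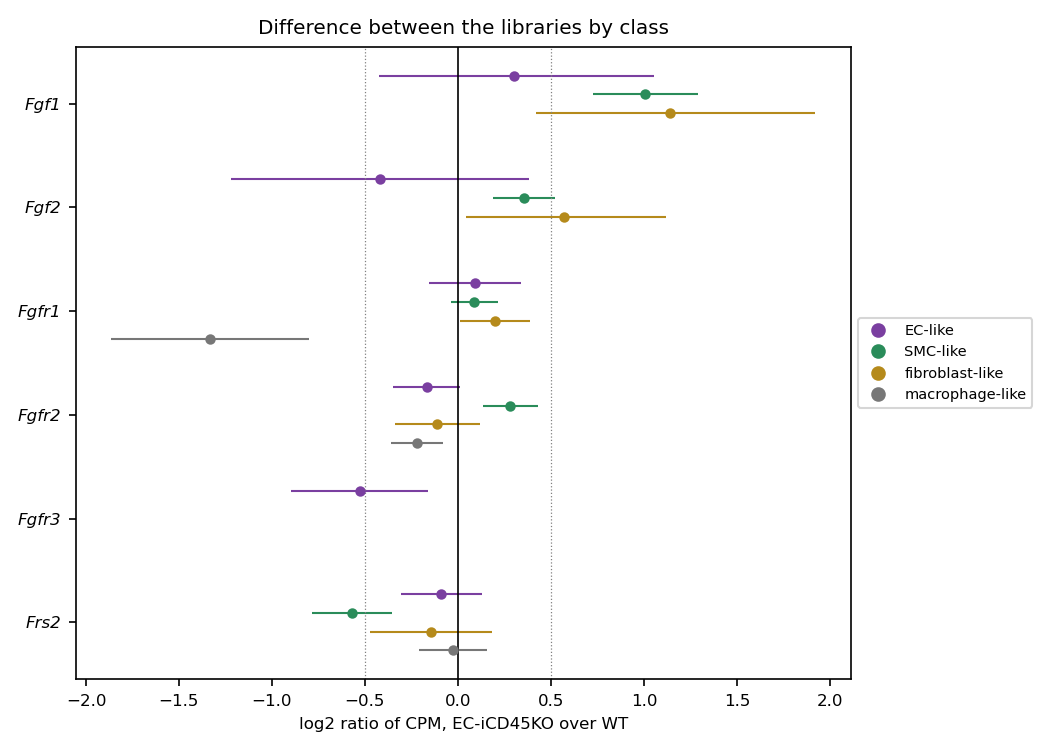
Log2 ratio of the level in EC-iCD45KO over WT (x axis) for each gene (y axis) in EC-like (purple), SMC-like (green), fibroblast-like (ochre) and macrophage-like cells (grey). Points are ratios of 1 library to 1 library, bars are exact 95% counting intervals, dotted lines mark 0.5 in either direction and genes with under 20 UMIs in a library are not drawn; Fgf1 lies at 1.0 in SMC-like and 1.14 in fibroblast-like cells, and Fgfr1 at -1.33 in macrophage-like cells.

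Both ligands were higher in SMC-like and fibroblast-like cells of the EC-iCD45KO library. In the other named classes with a ratio, the interval of each ligand held 0. Fgf1 in SMC-like cells stood at 17.1 CPM in WT and at 34.3 CPM in EC-iCD45KO. Its log2 ratio was 1.0 (0.73 to 1.29), and 1.01 in cluster 5 and 1.03 in cluster 14, the 2 SMC-like clusters. Its range over all the alternative settings was 0.91 to 1.09. Fgf2 in SMC-like cells had a ratio of 0.35 (0.19 to 0.52). Of 10743 genes measured in SMC-like cells, 6.98% were higher and 10.4% lower at 0.5 or more. Of the 5 FGF genes measured there 1 was higher, Fgf1, and 1 was lower, Frs2, with 41.5 and 27.9 CPM and a ratio of -0.57 (-0.79 to -0.35). It was -0.43 with the looser cell filter, -0.46 without doublet removal and -0.49 with TMM or DESeq2 factors, all under 0.5 in size, and -0.88 with means of single-cell CPM. The Frs2 ratio was -1.02 (-1.41 to -0.64) in cluster 5 and -0.37 (-0.63 to -0.10) in cluster 14.

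In the same SMC-like cells the sum of the 8 SMC markers was 16515 CPM in WT and 26153 CPM in EC-iCD45KO, and that of the 8 fibroblast markers was 10730 and 7572 CPM. The sum of the 6 pericyte markers was 876 and 1653 CPM and that of the macrophage markers 1229 and 3358 CPM. All of these markers had at least 1 UMI in both libraries, and their part in the ligand difference was not tested. Fgfr2 had a ratio of 0.28 (0.13 to 0.43) in SMC-like cells. Fgfr1 had one of 0.09 (-0.04 to 0.22) there, with 0.64 (0.32 to 0.97) in cluster 5 and 0.04 (-0.10 to 0.18) in cluster 14, and 0.56 for the class at Leiden resolution 2.

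In fibroblast-like cells 8.56% of 11077 genes were higher and 15.1% lower at 0.5 or more, and of the 5 FGF genes measured 2 were higher and 0 lower. Fgf1 had 5.11 CPM (21 UMIs) and 11.3 CPM (68 UMIs), and its ratio was 1.14 (0.42 to 1.92). It was 2.02 (0.73 to 3.57) in cluster 4, led by Saa3 and C7, and 0.44 (-0.45 to 1.41) in cluster 24, led by Sfrp4 and Fbln1. At Leiden resolution 2, a finer clustering, the Fgf1 ratio was 0.27, and with each library centred before clustering it was 0.40. The range over all the alternative settings was 0.27 to 1.72. Fgf2 had a ratio of 0.57 (0.04 to 1.12), 0.16 at Leiden resolution 2, 0.30 with centring and 0.17 with means of single-cell CPM. Fgfr1 was at 91.4 and 105 CPM, a ratio of 0.20 (0.01 to 0.39) that turned to -0.027 at Leiden resolution 2. In these cells the macrophage markers summed to 3150 CPM in WT and 5003 CPM in EC-iCD45KO and the chondrocyte markers to 404 and 777 CPM, and their part was not tested.

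In macrophage-like cells Fgfr2 and Frs2 reached the 5 CPM mean and the other 4 FGF genes did not. Of 9523 genes measured there 3.16% were higher and 5.72% lower at 0.5 or more, and of the 2 FGF genes measured, Fgfr2 (-0.22, and 0.024 with centred libraries) and Frs2 (-0.03), 0 were higher and 0 lower. Fgfr1, at 61 UMIs in WT and 63 in EC-iCD45KO, was below the 5 CPM mean with 5.22 and 2.07 CPM and a ratio of -1.33 (-1.86 to -0.80). Of the WT UMIs, 38 came from cluster 11, led by Ccl8, Ccl12 and Mrc1, where Fgfr1 was at 17.4 CPM in WT and 3.29 CPM in EC-iCD45KO. The cluster makeup of the class differed between the 2 libraries: the largest cluster in WT was cluster 8, with 979 of 2871 cells, while in EC-iCD45KO it was cluster 7, led by Gpnmb and Mmp12, with 2887 of 6624 cells against 536 in WT. With each library centred before clustering the Fgfr1 ratio was -0.28. Dendritic cell-like cells had 31.4 CPM (34 UMIs) in WT and 9.27 CPM (22 UMIs) in EC-iCD45KO, a ratio of -1.76 (-2.60 to -0.94), in a class whose median gene moved by 0.13 (log2) under DESeq2 size factors.

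The rest of the pathway was described through 61 other genes in 7 lists. Of these, 29 reached a mean of 5 CPM in EC-like cells, 5 were higher and 1 lower at a log2 ratio of 0.5 or more, and their median ratio was 0.15 beside -0.01 over all genes. Over all genes 6.25% were higher and 8.89% lower. None of the 16 other FGF ligands and neither of the 2 other receptors (Fgfr4, and Fgfrl1, which lacks the kinase) reached that mean. Fgfrl1 had 5.39 and 3.36 CPM in EC-like cells and 19.8 and 22.9 CPM in SMC-like cells.

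Among the signalling adaptors 8 of 9 were measured in EC-like cells and 1 was higher. Gab1, a docking protein that Grb2 brings to Frs2, had 32.1 CPM in WT and 57.98 CPM in EC-iCD45KO, with a ratio of 0.85 (0.64 to 1.08). Gab1 was also higher in macrophage-like cells, at 34.0 and 53.0 CPM, a ratio of 0.64 (0.48 to 0.80). SMC-like cells gave 0.44 (0.19 to 0.71) for Gab1 and fibroblast-like cells -0.10 (-0.44 to 0.25). The macrophage markers in EC-like cells summed to 3176 CPM in WT and 4971 CPM in EC-iCD45KO, and their part in the EC-like values of Gab1 and of the feedback inhibitors was not tested. Grb2, with 205 and 182 CPM, had a ratio of -0.17 (-0.27 to -0.07), and Ptpn11, with 58.3 and 68.5 CPM, one of 0.23 (0.06 to 0.41).

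Of the 11 feedback inhibitors 9 were measured in EC-like cells, and 3 were higher and 0 lower by 0.5 or more, beside 6.25% and 8.89% of all genes. Spred1, which blocks Raf activation, went from 55.8 to 79.9 CPM (0.52, 0.35 to 0.69). Spry4, a Sprouty protein, went from 9.59 to 13.7 CPM (0.52, 0.10 to 0.95) and Spred3 from 4.60 to 7.83 CPM (0.77, 0.17 to 1.39). Dusp6, the ERK phosphatase that FGF signalling induces, had 62.7 and 81.4 CPM, a ratio of 0.38 (0.21 to 0.54) that stayed under 0.5. Dusp5, another phosphatase of this family, went the other way with 40.5 and 32.4 CPM (-0.32, -0.55 to -0.09). The median of the 9 was 0.20. Of the FGF target transcription factors 0 of the 4 measured were past 0.5, Fos at 823 and 866 CPM (0.07, 0.02 to 0.12) and Egr1 at 259 and 283 CPM (0.13, 0.04 to 0.21).

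Of the 13 co-receptors and binding proteins 7 were measured and 1 was higher, the glypican Gpc4, with 8.41 and 12.4 CPM (0.56, 0.11 to 1.02). Hspg2, which encodes the heparan sulphate proteoglycan perlecan, had 161 and 202 CPM (0.32, 0.22 to 0.43), and the syndecan Sdc4 118 and 111 CPM (-0.08, -0.21 to 0.05). The only measured pathway gene lower by 0.5 or more was Fgf13, an intracellular homologous factor that binds sodium channels rather than FGF receptors, with 32.4 and 14.9 CPM (-1.13, -1.43 to -0.83). Fgf13 was also lower in SMC-like (29.1 and 15.96 CPM), fibroblast-like (43.5 and 17.4 CPM) and macrophage-like cells (81.0 and 42.6 CPM).

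Below the 5 CPM mean, intervals of the EC-like ratio that excluded 0 were found in both directions. The share of all genes below that mean with such an interval was not computed. The intervals cover counting error only. The ligands Fgf23 (1.76, 0.63 to 3.08) and Fgf7 (1.63, 0.30 to 3.21), the target transcription factor Etv4 (1.63, 0.30 to 3.21) and the binding protein Fgfbp3 (0.97, 0.08 to 1.94) were on the higher side. Etv4 and Fgf7 each had 6 UMIs in WT and 24 in EC-iCD45KO. The ligand Fgf18 (-1.21, -2.10 to -0.36), the homologous factor Fgf12 (-1.10, -1.81 to -0.40) and the phosphatase Dusp4 (-1.01, -1.80 to -0.25) were on the lower side. These genes and Dusp5 were named after their values were seen.

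**Figure D4:**
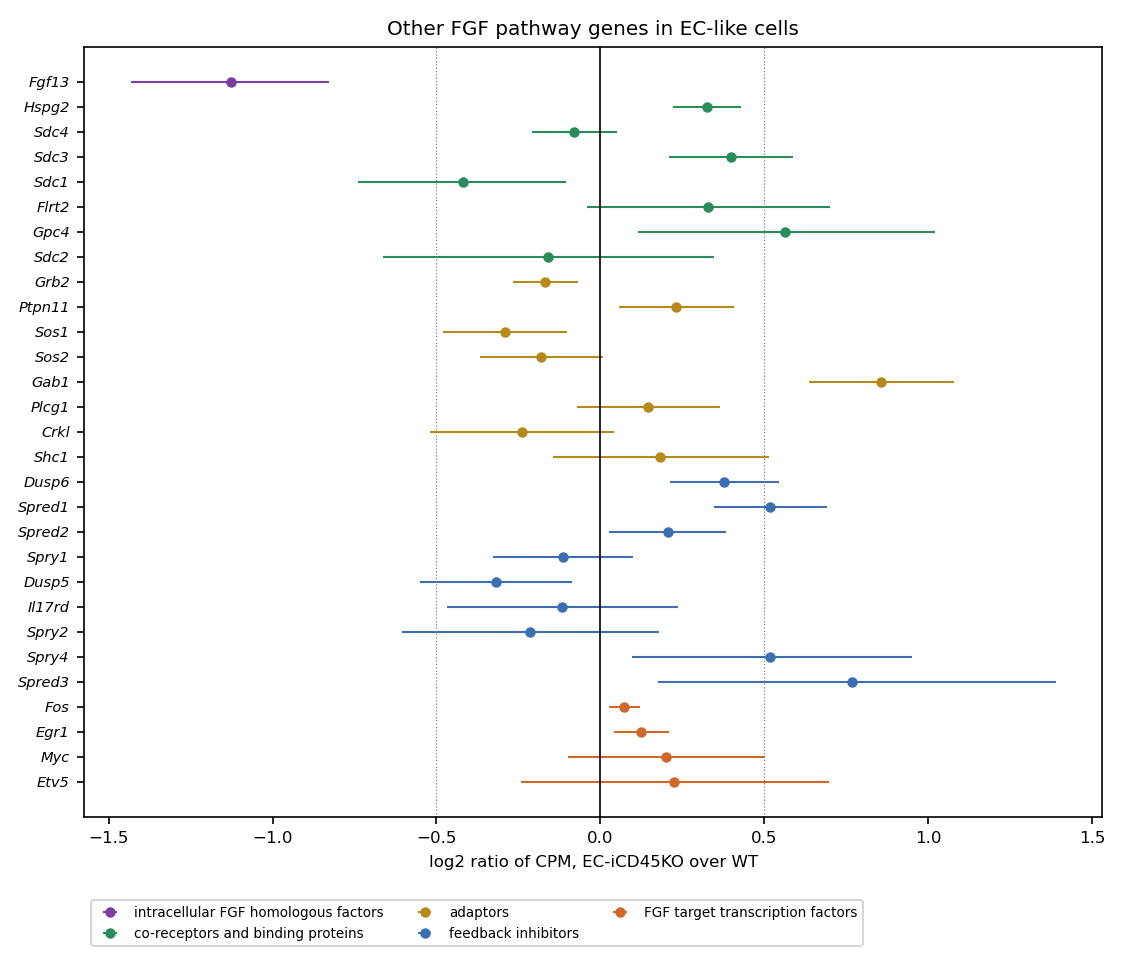
Log2 ratio of the level in EC-iCD45KO over WT (x axis) in EC-like cells for the 29 measured pathway genes outside the 6 members (y axis), coloured by list. Points compare 1 library with 1 library, bars are exact 95% counting intervals and dotted lines mark 0.5 in either direction; Gab1 lies at 0.85 and Fgf13 at -1.13.

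The same lists gave other counts elsewhere. In SMC-like cells 33 were measured, 1 was higher and 6 lower (6.98% and 10.4% of all genes), with a median of -0.12 beside -0.06 over all genes, which turned to 0.022 at Leiden resolution 2. In fibroblast-like cells 34 were measured, 7 were higher and 2 lower (8.56% and 15.1% of all genes), with a median of 0.23 beside -0.06. The ligand Fgf7, a mesenchymal factor that acts on epithelia through Fgfr2, was one of the 7, at 32.8 and 76.3 CPM in fibroblast-like cells (1.22, 0.94 to 1.51). It was at 15.8 and 11.5 CPM in SMC-like cells. In macrophage-like cells 24 were measured, 3 were higher and 2 lower (3.16% and 5.72% of all genes), with a median of 0.10 beside -0.04, which turned to -0.016 with centred libraries. Whether these classes differ from EC-like cells in the lists was not tested.

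The genes whose levels followed each member most closely were taken by Pearson correlation of log2(CPM + 1) over 26 points, the 13 classes in both libraries, among the 6776 genes that averaged 20 CPM or more. The points share 2 libraries and differ in depth, so these values are descriptions. Fgfr1 was most like Maged1 (r = 0.93), Ikbip (0.93) and Crtap (0.91), the last a partner of collagen prolyl hydroxylation. Fgfr3 was most like Alpl, the tissue-nonspecific alkaline phosphatase (0.87), Cytl1, a secreted cartilage protein (0.82), and the junction protein gene Jam2 (0.75). Fgf1 was most like Smoc1 (0.91), the Wnt antagonist Frzb (0.90) and Shisa4 (0.90), and Fgf2 like Frzb (0.94), Postn (0.90) and Cspg4 (0.90). Fgfr2 was most like Unc50 (0.93), Pgrmc1 (0.89) and Bod1 (0.89). Frs2 was most like Ppig (0.91), Ogdh (0.90) and Tasor (0.90). Among the members the closest pair was Fgf1 and Fgf2 (r = 0.94), and Fgfr1 with Fgf1 gave 0.76, whereas Frs2 with Fgf2 gave -0.01.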

How the data were processed

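The deposited matrices hold whole-number UMI counts per gene and cell barcode, written by Cell Ranger 7.1.0 on mm10, per the submitters' processing notes and the file headers. The annotation, intron and strand use and cell calling were not given in the sources used here. The smallest barcode held 500 UMIs. GENCODE M21 matched 32158 of the 32285 gene identifiers.

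Cells needed 300 or more genes and a mitochondrial share no higher than 10% (39503 in WT, 28960 in EC-iCD45KO). The median mitochondrial share was 1.90% and 3.03%. Scrublet in scanpy 1.11.5 marked 3 of 39716 and 0 of 29991 cells at its own threshold, so it had not worked, and each library instead lost its top 10% of cells by score. Both libraries were clustered together on 2000 variable genes without the 6 members, the pathway lists, Ptprc and Nudt6, with 30 principal components, 20 neighbours and Leiden resolution 1 (leidenalg 0.10.2). Of 35 clusters, 23 were named from fixed markers of 17 classes: a mean log2 excess of at least 1, a lead of 0.75, 3 detected markers, 50 cells, no other class with more markers among the 10 leading genes, and at least 20 cells in each library. The last condition was added after seeing the data, and names are rebuilt here, not the authors'.

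For each library, a gene's UMIs were added up within a class and scaled by the class total (CPM). Counts carry exact Poisson, ratios exact conditional binomial and shares Clopper-Pearson 95% intervals. A value of 0 was given a limit of 3 counts. Genes past a log2 ratio of 0.5 with a mean of at least 5 CPM were counted. The members, lists, naming thresholds and tests were chosen with earlier results of these data known. Named pathway genes were those past 0.5 and the 2 most abundant of each list in EC-like cells; values of such genes in other classes, and Fgf7, Fgfrl1, Dusp5 and the genes named below the 5 CPM mean, were chosen after their values were seen. The ratio intervals were run on counts simulated from the counting model they assume, with no spread between cells, animals or libraries. That run checks the calculation only.

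The settings varied were the cell filter (stricter, looser), doublet removal (none), Leiden resolution 2, centred libraries, TMM factors of edgeR 4.0.16, size factors of DESeq2 1.42.0, CPM without mitochondrial, ribosomal protein, haemoglobin and immunoglobulin genes, means of single-cell CPM, equal weights for clusters, 0.5 CPM added in place of a minimum, and cell depth (2000 UMIs, or all). Their use on levels of one class over another was added after seeing the data. Python 3.11.15 and R 4.3.3 were used.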

Additional observations from a re-analysis of the deposited data

Results flagged for a closer look

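The Fgfr1 ratio of EC-iCD45KO over WT was 0.20 (log2) in fibroblast-like and -1.33 in macrophage-like cells, opposite signs with intervals that both exclude 0, although the fibroblast-like ratio turned to -0.027 at Leiden resolution 2. The Fgfr2 ratio was 0.28 in SMC-like and -0.22 in macrophage-like cells, again of opposite sign, although the macrophage-like ratio turned to 0.024 with each library centred before clustering. Neither difference between classes was tested, since each group had 1 library.

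Cells of unnamed clusters, for which no library ratio is given above, held Fgfr2 at 56.4 CPM in EC-iCD45KO, above the 50.7 CPM of WT. They held Fgf1 at 9.54 CPM, above the 6.73 CPM of WT.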

How the results depend on the processing

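No paired analysis was possible because WT and EC-iCD45KO came as 1 library each, and so no replicate could be left out. Of the main results under all settings, 151 values stayed close to the reported one (inside its counting interval or, for counts of genes, of similar size) and 15 did not. With means of single-cell CPM, Fgf1 SMC-like over EC-like in EC-iCD45KO was 2.51 and Fgf2 3.92, Fgfr1 EC-like over macrophage-like was 2.04 in WT and 2.97 in EC-iCD45KO, Fgfr1 SMC-like over EC-like was 1.41 in WT, Fgfr2 EC-like over B-like was 0.73 in WT, and Fgfr3 EC-like over SMC-like was 4.80 in WT and 2.63 in EC-iCD45KO. Fgfr1 SMC-like over EC-like was 1.24 in WT and 1.25 in EC-iCD45KO with equal cluster weights, 1.14 in WT at Leiden resolution 2 and 1.42 in EC-iCD45KO without doublet removal. Centring the libraries gave 3.47 for Fgfr1 EC-like over macrophage-like in WT. The Fgfr3 ratio in EC-like cells was -0.16 with equal weights. With no minimum and 0.5 CPM added, 17 pathway genes passed 0.5 in EC-like cells instead of 6, and low genes enter by construction. Elsewhere the count went the same way, from 7 to 17 in SMC-like, from 9 to 17 in fibroblast-like and from 5 to 12 in macrophage-like cells. It was 4 in SMC-like cells with the stricter filter, 5 in fibroblast-like cells at Leiden resolution 2, and 16 and 10 in fibroblast-like and macrophage-like cells with centring.

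Of ratios whose interval excludes 0, and of pathway medians, signs turned for Fgfr1 in fibroblast-like cells (-0.027 at Leiden resolution 2), Fgfr2 in macrophage-like cells (0.024 with centring), and the pathway medians in SMC-like (0.022 at Leiden resolution 2, 0.055 with single-cell means) and macrophage-like cells (-0.016 with centring). Of ratios whose interval holds 0, signs turned in at least 1 setting for Fgf1, Fgf2 and Frs2 in macrophage-like cells, Fgfr2, Fgfr3 and Frs2 in fibroblast-like cells, Fgfr3 in SMC-like cells, and Fgf1 (-0.014) and Fgf2 (0.061) in EC-like cells. The cause was not tested. Fgfr3 in macrophage-like cells, and Fgfr2 EC-like over B-like in EC-iCD45KO with centring, gave no value. Depth limits Fgf1 and Fgf2 in EC-like cells, with 27 to 43 UMIs each.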

Other observations

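Among the unnamed clusters, cluster 29 (214 WT and 213 EC-iCD45KO cells), led by Notch3, Higd1b, Dgkb and Rgs4 and about as close to the pericyte as to the SMC markers, held more Fgf1 than any named class. Fgf1 was at 85.2 CPM there in WT (46 UMIs) and 105 CPM in EC-iCD45KO (81 UMIs), a log2 ratio of 0.30 (-0.24 to 0.85). Fgf2, which had the Fgf1 pattern among the named classes, was at 1.85 CPM (1 UMI) and 19.4 CPM (15 UMIs) in these cells. Fgfr1 was at 70.4 and 63.4 CPM, and Fgfr3 had 0 and 1 UMIs.

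Cluster 19 (254 and 859 cells), led by S100g, Glycam1 and Selp, was about as close to the SMC as to the EC markers. It had Fgfr1 at 48.3 and 49.9 CPM, Fgf2 at 19.7 and 18.4 CPM and Fgfr3 at 17.9 and 10.9 CPM. Fgf2 thus lay between its EC-like and SMC-like levels, and the intervals of Fgfr3 overlapped those of EC-like cells. Expression by the cells themselves, free RNA and doublets of EC and SMC cannot be told apart in cluster 19. Cluster 6 (2813 and 874 cells), led by Slurp1, Vcam1 and Mmp13, had Fgfr1 at 54.7 and 57.7 CPM and Fgf2 at 23.7 and 32.8 CPM.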
